A study of Homo sapiens with 12 samples.

Results

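The nuclear genes of the mitochondrial respiratory chain were followed through H3K9ac, the acetylation of lysine 9 on histone H3, in a human leukaemia cell line given an inhibitor of a histone acetyltransferase. The set was made of all nuclear coding genes of the RefSeq table whose symbols start with NDUFA, NDUFB, NDUFC, NDUFS, NDUFV, UQCR, COX4 to COX8, ATP5F, ATP5M or ATP5P, with SDHA, SDHB, SDHC and SDHD. It held 95 of 20033 coding genes. Each gene was represented by the listed H3K9ac region with the highest mean over the 6 libraries among those within 1 kb of either end of the gene. Of the 95 genes 83 had such a region, as did 12344 coding genes in all. The 83 genes lay on 81 distinct regions, because 2 readthrough genes, ATP5MF-PTCD1 and NDUFC2-KCTD14, shared the region of their first gene. The symbol rule itself used no measured value, but the set was chosen with earlier results of these data known.

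The respiratory chain is the series of protein complexes in the inner mitochondrial membrane that passes electrons from NADH and succinate to oxygen and pumps protons as it does so. Complex I takes electrons from NADH, complex II from succinate, complex III passes them to cytochrome c and complex IV to oxygen, and complex V, the ATP synthase, lets the protons flow back to make ATP. Some core subunits are encoded by mitochondrial DNA and all others by nuclear genes, whose promoters are typically CpG-rich and active in most cell types, and leukaemic stem cells are known to depend strongly on this pathway. H3K9ac marks active promoters and enhancers.

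MOLM-13, a single human acute myeloid leukaemia line, was used for all libraries. Treated cells received WM-1119, a small molecule inhibitor of the acetyltransferase KAT6A, at 4 µM for 4 days, and the controls carried the treatment label DMSO, the solvent. Each condition had 3 H3K9ac libraries, numbered 1 to 3, and the 6 input libraries among the 12 samples were not analysed here. The series asks what KAT6A inhibition does to the chromatin of these cells. The table gave 47648 regions of hg38 as CPM, where 1000000 is the sum of each library over the table, so a gain or loss of the mark everywhere would not show. In the mixture of cells behind a library, fewer cells carrying the mark and less of the mark per cell cannot be told apart.

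Depth was uneven. Reads in regions numbered 4542322, 9996190 and 12705349 in WM-1119 replicates 1 to 3, against 719329, 1298443 and 7481097 in DMSO replicates 1 to 3. The figure for WM-1119 replicate 2 is approximate, because its step cannot be told from rounding. One read was worth 0.0787 CPM in WM-1119 replicate 3 and 1.39 CPM in DMSO replicate 1. In DMSO replicate 1 a region without reads could still hold up to 4.17 CPM (3 reads, counting error only), and the lowest value of any respiratory chain region in any library was 8.26 CPM. DMSO replicates 1 and 2 also stood apart in their background. The weaker 50% of regions, by mean, took 3.35%, 2.70% and 2.19% of CPM in the WM-1119 libraries, against 8.95%, 7.19% and 2.35% in the DMSO libraries. All 10 myeloid marker genes had a region, with a median of 35.7 CPM. Mean levels were 391 CPM at CEBPA, 269 CPM at FLT3, 245 CPM at SPI1, 79.4 CPM at LYZ and 61.8 CPM at CSF3R. The CSF3R region is also that of MRPS15, a mitochondrial ribosomal protein gene, so its level cannot be given to CSF3R alone. The other 5 (CD33, CSF1R, ITGAM, CD14 and MPO) had 2.66 to 9.56 CPM. Markers of other lineages had at most 4.26 CPM or no region, apart from CD79A at 14.7 CPM, CD4 at 34.0 CPM and EPOR at 60.0 CPM.

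Of the 12 genes without a region at either end, 7 had none further in: no listed region lay inside UQCRHL, COX4I2, COX6A2, COX7A1, COX7B2, COX8C or ATP5MGL. Most of these are relatives of a widely used subunit that are known from particular tissues, COX4I2 from lung, COX6A2 and COX7A1 from heart and skeletal muscle, COX7B2 and COX8C from testis. NDUFA5, COX7A2, COX7A2L and ATP5MC2 had a region further in, which held a RefSeq start of the gene, and it lay 4640 to 19885 bp from the nearest end. Those inner regions had mean levels of 31.6 CPM in NDUFA5, 78.2 CPM in COX7A2, 69.0 CPM in COX7A2L and 54.6 CPM in ATP5MC2. The symbol rule left out NDUFA4 and NDUFA4L2, which RefSeq now names COXFA4 and COXFA4L2, and their mean levels were 68.1 and 44.9 CPM.

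Most paralogue pairs of complex IV differed in whether they had a region at a gene end. COX4I1, COX6A1, COX6B1, COX7B and COX8A, the widely used forms, all had a region at the end of the gene, while of their counterparts COX4I2, COX6A2, COX6B2, COX7B2 and COX8C only the testis form COX6B2 did. The pair of COX7A2 and COX7A1 was an exception, with no region at an end of either gene, although COX7A2 had one further in and COX7A1 did not. Another exception was the pair of NDUFA4 and NDUFA4L2, which both had a region at a gene end. The region of COX6B2, which also lies at an end of GARIN5B and does not hold the start of COX6B2 in the RefSeq start table, was the weakest of the 81 at 13.4 CPM. The bases before 2 pairs of RefSeq starts (GRCh38.p14, 120 bases each) are shown because they set a start inside a listed region beside one outside all listed regions, with every CpG in capitals. COX6A1 (chr12:120437993-120438112, plus strand) lay inside a region and COX6A2 (chr16:31428361-31428480, minus strand) outside. The 2 starts of COX7A2 were at chr6:75243802-75243921, inside a region, and chr6:75250299-75250418, outside, both on the minus strand.
COX6A1: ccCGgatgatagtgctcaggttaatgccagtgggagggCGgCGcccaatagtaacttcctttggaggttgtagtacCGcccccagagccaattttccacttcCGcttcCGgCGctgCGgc
COX6A2: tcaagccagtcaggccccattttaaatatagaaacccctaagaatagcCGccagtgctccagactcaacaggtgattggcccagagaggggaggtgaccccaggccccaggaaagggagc
COX7A2 start inside a region: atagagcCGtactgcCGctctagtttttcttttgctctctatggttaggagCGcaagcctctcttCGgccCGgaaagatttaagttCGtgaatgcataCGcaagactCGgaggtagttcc
COX7A2 start outside regions: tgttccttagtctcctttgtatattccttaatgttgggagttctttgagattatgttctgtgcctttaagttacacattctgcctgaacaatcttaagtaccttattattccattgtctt
The stretch before the COX6A1 start held 8 CpGs and that before the COX6A2 start 1. For COX7A2 the counts were 8 at the start inside a region and 0 at the other. In the longer promoter windows described below, the pair of COX6B1 and COX6B2 went the other way. The COX6B2 window, outside all listed regions, held 31 CpGs, and the COX6B1 window, which overlapped a region, held 16. COX7B with 14 against 8 in COX7B2, and COX8A with 18 against 10 in COX8C, went the same way as the pairs shown.

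Promoter windows of 300 bases, 250 before and 50 after a RefSeq start, were at hand for 77 of the 95 genes, as 95 windows. Of these windows 91.6% overlapped a listed region, against 57.5% of the 22198 windows of all coding genes. Exact matches were sought on both strands to GCGCANGCGC for the factor NRF1, CCGGAAG for ETS factors such as GABPA, and AAGATGGCGG for YY1. Among windows that overlapped a region, the NRF1 letters were in 19.5% of 87 respiratory chain windows, against 11.5% of 12771 windows of all coding genes. The ETS letters were in 28.7% of the respiratory chain windows against 19.2% of those of all coding genes, and the YY1 letters in 12.6% of the respiratory chain windows against 2.79% of those of all coding genes. Windows of the same gene were counted separately in both sets and can share a match, so the 11 respiratory chain windows with the YY1 letters belonged to 9 genes. No ETS match overlapped an NRF1 or YY1 match in a respiratory chain window. A match is a description of the letters and shows no binding.

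The bases before 4 starts are shown because they carry these letters at genes described below, with every match that lies whole in the stretch in capitals (RefSeq, GRCh38.p14). They lie at chr5:218150-218319 for SDHA, chr11:112086753-112086872 for SDHD and chr2:97645942-97646061 for COX5B, all on the plus strand, and at chr21:25735055-25735174 on the minus strand for ATP5PF.
SDHA: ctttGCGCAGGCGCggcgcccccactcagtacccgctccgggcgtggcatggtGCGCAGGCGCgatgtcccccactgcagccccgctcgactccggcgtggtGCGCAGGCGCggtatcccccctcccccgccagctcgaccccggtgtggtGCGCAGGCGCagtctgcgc
SDHD: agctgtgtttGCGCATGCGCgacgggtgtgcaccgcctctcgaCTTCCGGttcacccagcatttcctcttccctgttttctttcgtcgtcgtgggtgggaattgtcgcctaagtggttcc
COX5B: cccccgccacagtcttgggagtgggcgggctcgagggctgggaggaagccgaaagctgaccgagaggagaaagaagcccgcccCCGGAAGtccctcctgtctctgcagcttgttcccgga
ATP5PF: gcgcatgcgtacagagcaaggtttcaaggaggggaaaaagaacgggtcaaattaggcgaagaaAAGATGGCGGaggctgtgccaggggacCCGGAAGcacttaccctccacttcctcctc
The SDHA stretch held 4 copies of the NRF1 letters. The SDHD stretch held the NRF1 letters in a form that reads the same on both strands and the ETS letters on the other strand. COX5B held the ETS letters before its start, and ATP5PF held the YY1 letters followed by the ETS letters. Between WM-1119 and DMSO the 17 regions whose windows held the NRF1 letters had a median log2 change of 0.16, against 0.22 for the 53 without. The same medians were 0.16 and 0.20 for 23 regions with and 47 without the ETS letters, and 0.32 and 0.20 for 9 with and 61 without the YY1 letters. Set against gene ends of the same strength, by the excess described below, the medians with and without the letters were 0.010 and 0.018 for NRF1. They were -0.015 and 0.033 for ETS, and 0.084 and 0.011 for YY1.

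Respiratory chain regions were stronger than coding gene ends in general. Their mean levels ran from 13.4 to 296 CPM with a median of 76.8 CPM, against a median of 53.3 CPM over the 10306 tested gene-end regions. Per kb of region the median was 35.2 CPM in the respiratory chain and 25.6 CPM over gene-end regions. The regions were also wider, with a median of 2294 bp against 1992 bp, and mean CPM followed width (Spearman 0.73 over the 81 regions, a description), so levels are compared between genes per kb. NDUFAF3, the gene of a complex I assembly factor, was highest at 74.1 CPM per kb, followed by COX6C at 73.0, COX4I1 at 66.4, NDUFAF6 at 64.6 and NDUFB1 at 63.7 CPM per kb. No background was taken off these levels. COX6C and NDUFAF6 lie on chromosome 8, where background per kb was above that of the genome in every library. So do NDUFB9 and UQCRB, at ranks 6 and 8 of the 81 with 62.4 and 59.3 CPM per kb. Levels were not corrected for copy number and input was not used, so the level per gene copy is not known. NDUFS4 at 18.7, NDUFB11 at 17.6, SDHB at 17.3, COX6A1 at 16.0 and COX6B2 at 10.9 CPM per kb were lowest. Among the complexes the median ran from 29.9 CPM per kb in complex II, 32.5 in complex V, 34.6 in complex I and 42.0 in complex IV to 45.3 in complex III.

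**Figure D1:**
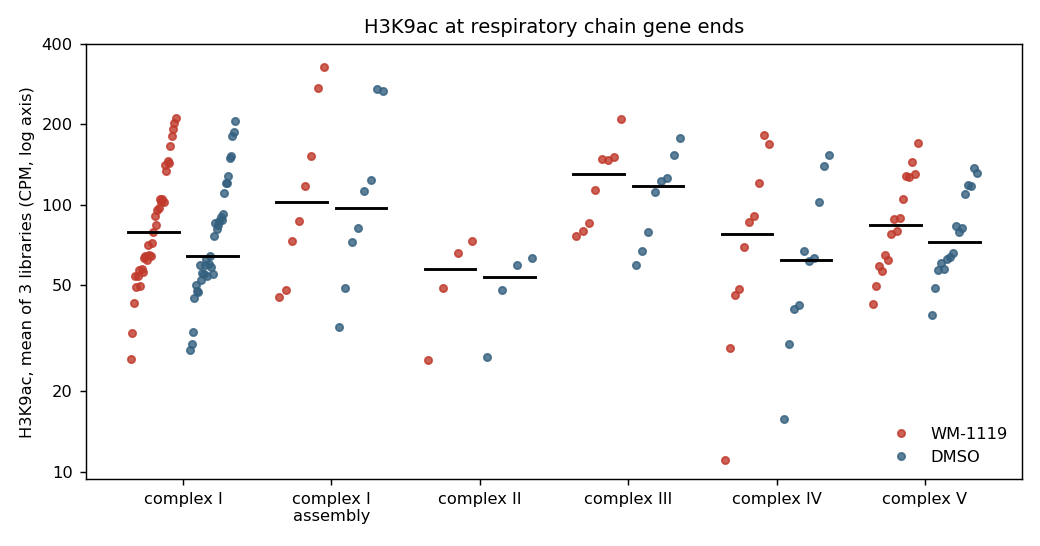
H3K9ac at the 81 regions by complex, in CPM on a log axis; each point is the mean of 3 libraries of 1 region, WM-1119 left of DMSO, and black lines are group medians. The points of WM-1119 and DMSO overlap in every complex.

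With WM-1119 none of the 81 regions changed past the threshold. limma on log2(CPM + 1) over 44763 regions, with Benjamini-Hochberg adjustment at 0.05, gave 0 called in either direction, and the smallest adjusted p among the 81 was 0.31, at COX8A. Over all tested regions 0.0603% were called lower and 0% higher, and over coding gene-end regions 0.0097% lower and 0% higher. All 81 regions passed the filter of a mean of at least 1 CPM. At an unadjusted p under 0.05, 12 regions (14.8%) were higher and 0 lower, against 9.49% higher and 1.8% lower of coding gene-end regions. edgeR on the recovered reads of 5 libraries called 0, and at an unadjusted p under 0.05 it had 0 in both directions. Without DMSO replicate 3 limma called 30 of the 81, 29 of them higher and COX6B2 lower. In that fit 43.2% of all regions and 27.6% of other coding gene-end regions were called, directions not separated. The median log2 change there was -0.80 over all tested regions and 0.16 over other coding gene-end regions. Separate cultures are not stated for the replicates, so the p-values rest on a spread between libraries that may be technical.

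The values leaned upward with WM-1119, as did those of other gene ends. Of the 81 regions 69 were higher in WM-1119 by their log2 change and 12 lower. The median log2 change was 0.18 (quartiles 0.045 and 0.28), against 0.12 over coding gene-end regions and -0.47 over all tested regions. It ranged from 0.055 without DMSO replicate 1 to 0.31 without DMSO replicate 3. The values ran from -0.41 at COX6B2 to 0.55 at COX8A. Scaling set the level of these figures: with quantile normalization the median was 0.056 with 52 of 81 higher, and with median centring, which adds the same amount to every region and took the median of all tested regions to 0.30, it was 0.96 with 81 of 81 higher. Every negative change among the 81 regions is thus positive under median centring. In 9 regions (11.1%) all 3 WM-1119 libraries lay above all 3 DMSO libraries, at NDUFA6, NDUFB1, NDUFB5, NDUFS3, NDUFS7, UQCRFS1, COX4I1, COX8A and ATP5PD, and in none did they lie below. Over coding gene-end regions 13.4% had WM-1119 above and 3.25% below.

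Set against gene ends of the same strength, the difference was close to 0. Each respiratory chain region was compared with the 200 other coding gene-end regions nearest to it in mean CPM, and the median of their log2 changes was taken off its own. The median of this excess was 0.010 (quartiles -0.11 and 0.084), with 41 of 81 regions above 0. It ran from -0.40 at NDUFA3 to 0.38 at NDUFA6. Among the neighbours 83.6% were higher in WM-1119, against 85.2% of the respiratory chain regions, 14.0% were higher at an unadjusted p under 0.05 and 18.5% had WM-1119 wholly above DMSO. Change grew with strength among all coding gene ends, with a median log2 change of 0.035 in regions of 10 to 50 CPM, 0.17 in those of 50 to 100 CPM and 0.23 in those of 100 to 400 CPM. The respiratory chain regions in these ranges had medians of 0.048, 0.19 and 0.23, over 15, 40 and 26 regions. The median excess was -0.045 without DMSO replicate 1.

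**Figure D2:**
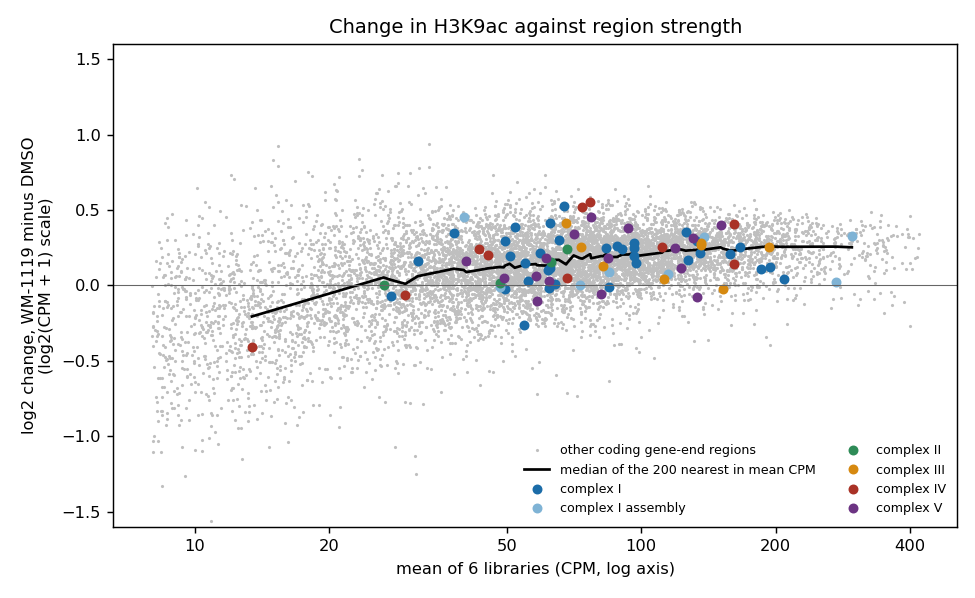
Log2 change (WM-1119 minus DMSO, log2(CPM + 1) scale) against the mean of 6 libraries in CPM on a log axis; coloured points are the 81 respiratory chain regions by complex, grey points 8853 other coding gene-end regions, and the black line the median of the 200 nearest. The coloured points lie on both sides of the line, 41 of them above it.

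The upward values went with 2 of the DMSO libraries. The median level of the 81 regions was 82.8, 83.4 and 84.4 CPM in WM-1119 replicates 1 to 3, against 63.9, 72.4 and 83.1 CPM in DMSO replicates 1 to 3. DMSO replicates 1 and 2 lay well below the WM-1119 libraries and DMSO replicate 3 lay among them. Of the reads in all listed regions, the 81 regions held 0.799 ± 0.0152% in WM-1119 and 0.709 ± 0.113% in DMSO (SD, n = 3 each). The difference was 0.0905 percentage points beside a pooled SD of 0.0803. DMSO replicate 1 was the lowest of the 6 libraries in 53 of the 81 regions and DMSO replicate 2 in 20, while DMSO replicate 3 was lowest in 0 and the highest in 34. As a share of the reads in coding gene ends alone the 81 regions had 1.06%, 1.07% and 1.07% in the WM-1119 libraries, against 1.00%, 1.05% and 1.11% in the DMSO libraries, and the groups overlapped. With DMSO replicates 1 and 2 both left out, a fit in which the spread is that of the WM-1119 libraries alone, the median log2 change was -0.062 with 27 of 81 higher. The same 2 DMSO libraries held the higher background and the lower depth, whose part in these values was not tested.

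**Figure D3:**
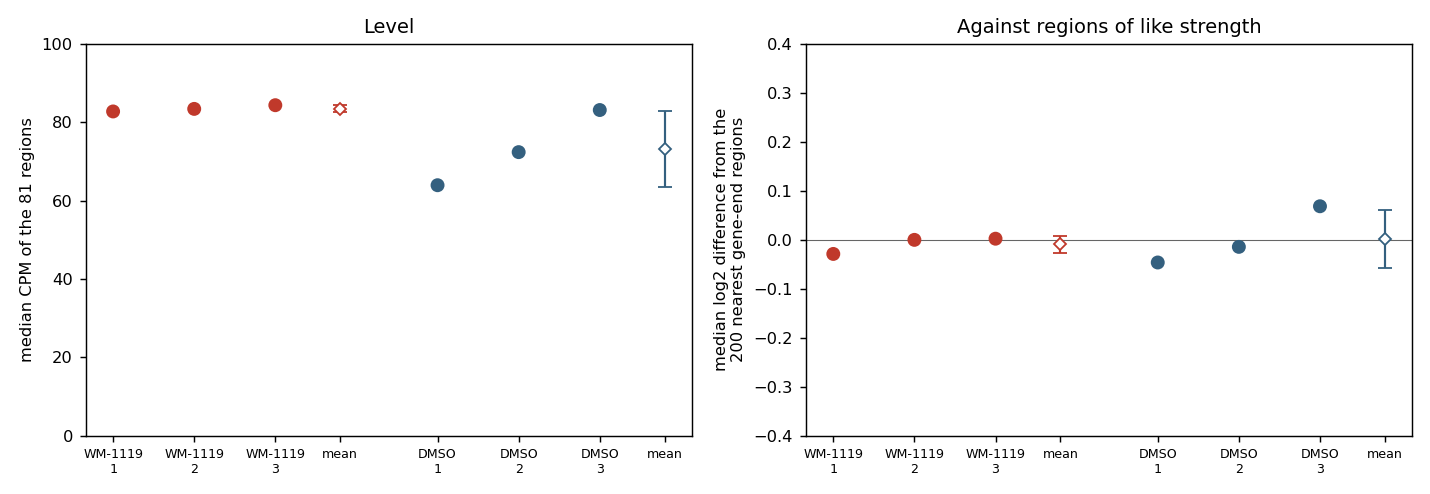
Left, median CPM of the 81 regions in each library; right, the median over the 81 regions of a region's log2(CPM + 1) minus the median of its 200 nearest gene-end regions in the same library. Points are libraries and diamonds group means with SD (n = 3 each); on the right the 3 WM-1119 libraries lie between -0.029 and 0.0024 and the DMSO libraries between -0.046 and 0.069.

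Complex I gave 35 regions for 36 of its 38 genes in the set, with 30 higher, 5 lower and 3 higher at an unadjusted p under 0.05, where 9.49% of coding gene-end regions were. Its median log2 change was 0.20 and its median excess 0.011. The core subunits, those shared with the bacterial enzyme, carry the NADH site and the iron-sulfur clusters. The 6 core regions at gene ends were all higher, with log2 changes of 0.10 to 0.35 and a median excess of -0.021. With quantile normalization the changes of NDUFS1, NDUFS3 and NDUFS8 turned to -0.031, -0.036 and -0.0016.

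NDUFS7, the core subunit that holds the last iron-sulfur cluster before ubiquinone, had 136, 136 and 151 CPM in WM-1119 libraries, against 101, 106 and 125 CPM in DMSO libraries. The groups did not overlap. NDUFS7 differed by 0.35 on the log2 scale (SE 0.16; limma adjusted p = 0.357). NDUFS3, a core subunit of the arm in the matrix, had 99.7, 104 and 104 CPM with WM-1119, against 89.0, 94.0 and 94.5 CPM with DMSO. The groups lay apart here too, by a small margin, with a log2 change of 0.15 ± 0.17 (SE). NDUFS1, the largest subunit, had 121, 136 and 143 CPM with WM-1119, against 95.9, 111 and 156 CPM with DMSO, so that DMSO replicate 3 was the highest of all. NDUFV1, which binds NADH, averaged 57.5 ± 6.77 CPM with WM-1119 and 52.2 ± 9.53 CPM with DMSO (SD, n = 3 each). Its partner NDUFV2 averaged 102 ± 8.14 CPM with WM-1119 and 90.0 ± 16.9 CPM with DMSO (SD, n = 3 each). NDUFS8, which holds iron-sulfur clusters, averaged 64.0 ± 5.06 CPM with WM-1119 and 59.6 ± 7.43 CPM with DMSO (SD, n = 3 each). The groups of these 3 genes overlapped.

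The accessory subunits of complex I held both ends of the range of excess. NDUFA6, an accessory subunit of the LYR protein family, had 85.9, 77.6 and 73.0 CPM with WM-1119, against 41.7, 60.1 and 63.8 CPM with DMSO. All 3 WM-1119 libraries were above the DMSO libraries, with DMSO replicate 1 far the lowest. limma put the log2 change at 0.53, with an SE of 0.19 and an adjusted p of 0.326, and the excess was 0.38. Without DMSO replicate 1 the log2 change was 0.34. NDUFA3, a small accessory subunit of the membrane arm, had 39.4, 54.0 and 55.4 CPM with WM-1119, against 69.5, 53.9 and 54.8 CPM with DMSO. Replicate 1 was the lowest of the WM-1119 libraries and the highest of the DMSO libraries, and the other 4 lay close together. This gave a log2 change of -0.26 with SE 0.20 (adjusted p = 0.464 in limma), which was -0.11 without WM-1119 replicate 1 and -0.14 without DMSO replicate 1. NDUFS4, an accessory subunit often mutated in Leigh syndrome, had 26.6, 25.9 and 26.8 CPM with WM-1119, against 36.1, 21.6 and 27.7 CPM with DMSO. Its DMSO libraries lay on both sides of the WM-1119 libraries.

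The 8 NDUFAF genes entered through the prefix NDUFA, although they encode assembly factors, which help to build complex I and are not part of it. Their regions had a median log2 change of 0.084 and a median excess of -0.12, with 7 of 8 higher and 2, NDUFAF1 and NDUFAF3, higher at an unadjusted p under 0.05. At that p 9.49% of all coding gene-end regions, and 24.7% of those of 100 to 400 CPM, were higher. NDUFAF3 had 301, 334 and 345 CPM with WM-1119, against 199, 256 and 344 CPM with DMSO, the strongest region of the set. DMSO replicate 3 overlapped the WM-1119 libraries. NDUFAF3 differed by 0.33 on the log2 scale (SE 0.15; limma adjusted p = 0.354). That region also lies at the ends of DALRD3 and of IMPDH2, the gene of an enzyme of guanine nucleotide synthesis.

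Complex II, which is also the succinate dehydrogenase of the citric acid cycle, has its 4 subunits encoded in the nucleus, and all 4 had a region. SDHA, the flavoprotein that oxidises succinate, had 48.2, 46.1 and 51.3 CPM with WM-1119, against 44.5, 47.7 and 51.9 CPM with DMSO. The 6 libraries were within a narrow span and its log2 change came to 0.016 with SE 0.20 (adjusted p = 0.963 in limma). This is the gene with 4 copies of the NRF1 letters before its start. SDHB, the iron-sulfur subunit, had 25.8, 26.5 and 26.2 CPM with WM-1119, against 19.5, 34.7 and 26.2 CPM with DMSO. The WM-1119 libraries lay together and the DMSO libraries spread around them, with a log2 change of 0.0044 ± 0.25 (SE).

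The 2 membrane anchors of complex II had larger differences within the DMSO spread. SDHC had 80.1, 68.4 and 71.6 CPM with WM-1119, against 45.9, 72.4 and 71.4 CPM with DMSO. Only DMSO replicate 1 was apart, and the log2 change of SDHC came to 0.24 with SE 0.19 (adjusted p = 0.477 in limma) and to 0.026 without that library. SDHD had 54.2, 72.4 and 70.8 CPM with WM-1119, against 47.3, 56.2 and 74.9 CPM with DMSO, in a region shared with the ends of TIMM8B and NKAPD1. Replicate 1 was lowest in both conditions and the groups overlapped. No region of complex II had an unadjusted p under 0.05, and the median excess of the 4 was -0.011.

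Complex III had 8 regions for 9 genes, with a median log2 change of 0.25 and a median excess of 0.014. UQCRH, the hinge protein that helps cytochrome c to dock, had 221, 202 and 207 CPM with WM-1119, against 160, 159 and 213 CPM with DMSO. DMSO replicates 1 and 2 were below all others and DMSO replicate 3 lay among the WM-1119 libraries. limma put the log2 change at 0.25, with an SE of 0.15 and an adjusted p of 0.40, and without DMSO replicate 3 it was 0.39. UQCRFS1, the Rieske iron-sulfur protein, had 145, 155 and 147 CPM with WM-1119, against 110, 119 and 141 CPM with DMSO, and the groups did not overlap. UQCRC1, a core protein, had 82.8, 72.1 and 73.8 CPM with WM-1119, against 36.1, 72.4 and 69.9 CPM with DMSO. Its log2 change of 0.42 ± 0.20 (SE) rested on DMSO replicate 1 and was 0.096 without that library.

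Complex IV, cytochrome c oxidase, held the region with the smallest p of the set and had a median log2 change of 0.22 and a median excess of 0.063 over 10 regions. COX8A, the gene of the smallest subunit, had 84.3, 93.9 and 94.1 CPM with WM-1119, against 47.3, 62.4 and 79.0 CPM with DMSO. The groups did not overlap. This gave a log2 change of 0.55 with SE 0.18 (adjusted p = 0.31 in limma), and with 1 library left out it ran from 0.36 (without DMSO replicate 1) to 0.73. COX5B, with the ETS letters before its start, had 75.3, 92.2 and 90.8 CPM with WM-1119, against 41.7, 62.4 and 80.5 CPM with DMSO. WM-1119 replicate 1 lay below DMSO replicate 3. COX5B differed by 0.52 on the log2 scale (SE 0.19; limma adjusted p = 0.331), and by 0.27 without DMSO replicate 1. COX4I1, the widely used form of a regulatory subunit, had 193, 183 and 171 CPM with WM-1119, against 104, 156 and 160 CPM with DMSO. The groups lay apart, with a log2 change of 0.40 and SE 0.16 (adjusted p = 0.339 in limma), which was 0.21 without DMSO replicate 1.

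The groups overlapped at COX6A1, COX6B1, COX7B, COX6C and COX6B2. COX6A1 averaged 29.1 ± 5.68 CPM with WM-1119 and 30.1 ± 2.17 CPM with DMSO, and COX6B1 averaged 69.2 ± 5.17 CPM with WM-1119 and 67.0 ± 6.28 CPM with DMSO (SD, n = 3 each). COX7B, which is X-linked, had 44.5, 47.9 and 45.6 CPM with WM-1119, against 25.02, 43.1 and 53.3 CPM with DMSO. The DMSO libraries surrounded the WM-1119 libraries. COX6C, the strongest region of complex IV, averaged 169 ± 6.60 CPM with WM-1119 and 154 ± 12.6 CPM with DMSO (SD, n = 3 each). COX6B2, the testis form, had 13.4, 11.5 and 8.26 CPM with WM-1119, against 18.1, 20.8 and 8.42 CPM with DMSO. Its log2 change of -0.41 with SE 0.36 (adjusted p = 0.512 in limma) was 0.33 with DMSO replicates 1 and 2 both left out, so its sign rested on these 2 libraries.

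**Figure D4:**
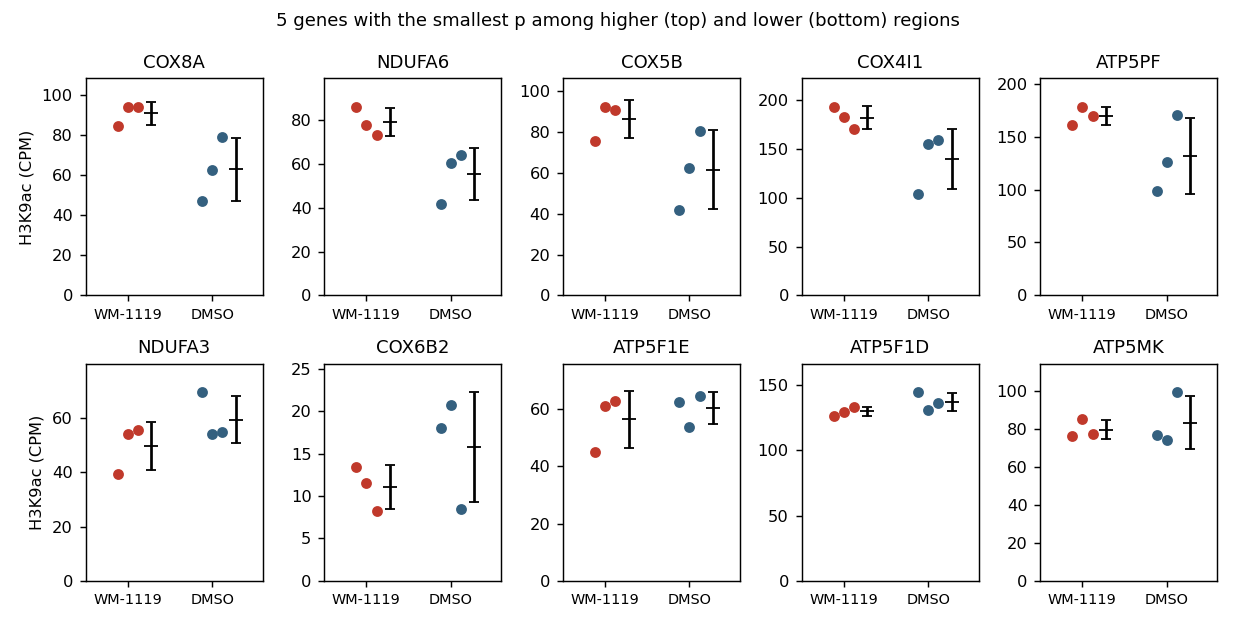
H3K9ac in CPM at 10 regions, the 5 of smallest p with a higher (top) and the 5 with a lower (bottom) WM-1119 mean; points are libraries in the order of their replicate numbers, bars the mean with SD (n = 3 each), and each panel has its own axis from 0. In the top row DMSO replicate 1 is the lowest library in every panel; limma called none of the 10.

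Complex V, the ATP synthase, had 16 regions for 17 genes, with a median log2 change of 0.17 and a median excess of -0.00097. ATP5PF, which encodes coupling factor 6 of the stalk that holds the catalytic head in place, had 161, 178 and 170 CPM with WM-1119, against 98.7, 126 and 170 CPM with DMSO. DMSO replicate 3 lay between WM-1119 replicates 2 and 3. limma put the log2 change at 0.40, with an SE of 0.16 and an adjusted p of 0.342. It was 0.21 without DMSO replicate 1 and -0.0073 with DMSO replicates 1 and 2 both left out. Its region, whose promoter letters are given above, is also that of GABPA, which encodes the DNA-binding subunit of an ETS factor known to act on respiratory chain genes. The values of both genes are therefore the same measurement.

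Of the 3 subunits of the rotating central stalk, delta and epsilon had lower means with WM-1119 and gamma a higher one, none of them called. ATP5F1C, the gamma subunit, averaged 128 ± 4.07 CPM with WM-1119 and 109 ± 21.3 CPM with DMSO (SD, n = 3 each). ATP5F1D, the delta subunit, had 127, 130 and 133 CPM with WM-1119, against 145, 131 and 136 CPM with DMSO. The groups overlapped at a narrow margin, with a log2 change of -0.08 and SE 0.16 (adjusted p = 0.757 in limma). ATP5F1E, the epsilon subunit, had 45.1, 61.2 and 63.0 CPM with WM-1119, against 62.6, 53.9 and 64.6 CPM with DMSO, in a region shared with an end of PRELID3B. WM-1119 replicate 1 alone lay below the DMSO libraries, and without it the log2 change of -0.11 became 0.045. The small membrane subunit ATP5MK averaged 79.5 ± 5.02 CPM with WM-1119 and 83.2 ± 13.9 CPM with DMSO, and ATP5MJ, another, averaged 42.5 ± 4.00 CPM with WM-1119 and 38.7 ± 10.2 CPM with DMSO (SD, n = 3 each).

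Many of these regions lay at an end of more than 1 gene. Of the 81 regions 51.9% also lay within 1 kb of an end of another coding gene, against 25.2% among the neighbours in strength and 20.7% of coding gene-end regions. Partners with a mitochondrial role of their own included MRPL47 beside NDUFB5 and MRPL36 beside NDUFS6, both genes of mitochondrial ribosomal proteins. Another was TIMM8B, of the protein import machinery, beside SDHD. These were picked out after their values were seen and are not a full list. The 42 shared regions had a median excess of -0.025 and the 39 not shared 0.040. For NDUFB6 and NDUFB10 the strongest region was that of a neighbour, and their own starts lay in regions of 40.7 and 43.5 CPM with log2 changes of -0.033 and -0.065.

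The respiratory chain genes differed by chromosome, as did gene ends in general. The 4 genes on chromosome 8, NDUFAF6, UQCRB, COX6C and NDUFB9, had a median excess of -0.22 with 0 of 4 above 0, and the 11 regions on chromosome 19 had -0.13 with 3 above 0. The other 66 regions had a median of 0.035 with 38 above 0. All coding gene-end regions of 10 to 400 CPM had median excesses of -0.13 on chromosome 8 (311 regions) and -0.097 on chromosome 19 (629 regions). UQCRB, a subunit of the ubiquinone site of complex III, had 173, 141 and 139 CPM with WM-1119, against 161, 158 and 141 CPM with DMSO. NDUFB9, an accessory subunit of complex I, averaged 212 ± 9.12 CPM with WM-1119 and 206 ± 20.6 CPM with DMSO, and NDUFAF6 averaged 274 ± 16.0 CPM with WM-1119 and 271 ± 33.1 CPM with DMSO (SD, n = 3 each). The groups overlapped at each of these genes.

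Background differed by chromosome in the same libraries. On chromosome 8 it was 8.30, 5.98 and 5.44 CPM per kb in the WM-1119 libraries, against 20.5, 16.96 and 5.24 CPM per kb in the DMSO libraries. Over the genome it was 4.38, 4.16 and 3.71 CPM per kb with WM-1119, against 8.05, 7.44 and 3.36 CPM per kb with DMSO. With DMSO replicates 1 and 2 both left out the median excess was -0.017 on chromosome 8 and -0.11 on chromosome 19. On chromosomes other than 6, 8, 13 and 19 it was -0.068 in that fit, against 0.036 with all libraries. With all libraries the medians were -0.22 on chromosome 8 and -0.13 on chromosome 19. In the fit without these 2 libraries the chromosome 8 median lay above that of these other chromosomes. The chromosome 19 median lay below it, by less than with all libraries. That fit has DMSO replicate 3 as its only DMSO library, and what lay behind these moves was not tested. With the background subtracted the median excess was -0.14 on chromosome 8, -0.15 on chromosome 19 and 0.0095 on these other chromosomes. A listed region of mitochondrial DNA itself (chrM:225-397) had 85.4, 12.3 and 10.8 CPM with WM-1119, against 505, 377 and 17.6 CPM with DMSO. It was highest in DMSO replicates 1 and 2. Its part in any result was not tested.

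**Figure D5:**
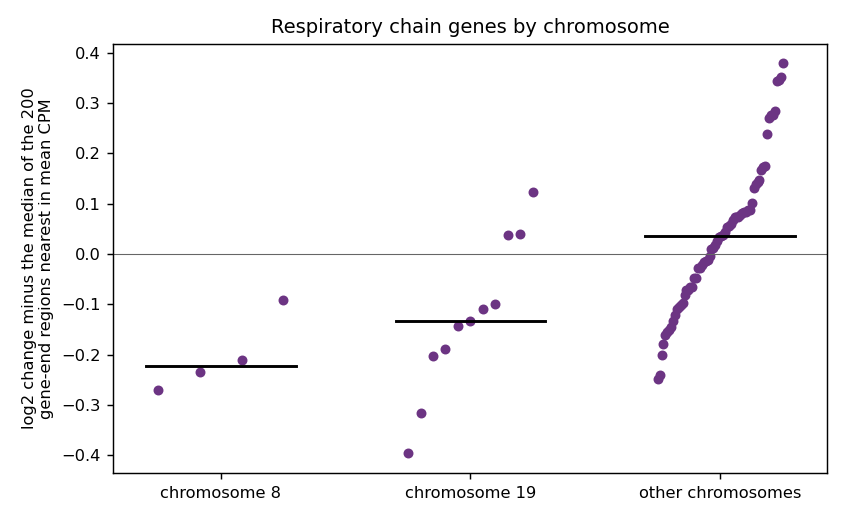
Excess of each respiratory chain region, its log2 change minus the median of the 200 coding gene-end regions nearest in mean CPM, by chromosome; points are regions and lines medians. The 4 points on chromosome 8 all lie below 0, with a median of -0.22, against 0.035 on chromosomes other than 8 and 19.

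Among genes around the chain most regions were also higher with WM-1119, and none was called. A list of 27 genes outside the symbol rule held CYC1, which encodes cytochrome c1, CYCS, which encodes cytochrome c, and mostly factors for the assembly or expression of complex IV. Of these 24 were higher with a median log2 change of 0.19 and an excess of 0.026, and limma called 0. CYC1 had 289, 337 and 349 CPM with WM-1119, against 207, 248 and 322 CPM with DMSO. CYCS averaged 96.4 ± 6.53 CPM with WM-1119 and 73.6 ± 20.2 CPM with DMSO (SD, n = 3 each). In each list below limma also called 0 at an adjusted p under 0.05. Higher with WM-1119 were 17 of 26 regions of assembly factors for complexes I, II, III and V (median excess -0.040), 10 of 13 of coenzyme Q synthesis (0.056), 17 of 19 of the citric acid cycle (0.014) and 30 of 39 of the mitochondrial ribosome (-0.051). Of factors that copy and transcribe mitochondrial DNA 9 of 13 were higher (median excess -0.050). Their median log2 changes lay between 0.089 and 0.23, beside 0.12 over coding gene-end regions.

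The nuclear factors that act on these promoters had levels of their own. Of 16 such regions 13 were higher, with a median log2 change of 0.19, a median excess of -0.021, and 4 higher at an unadjusted p under 0.05, GABPA, GABPB1, YY1 and CREB1. Their median level was 131 CPM, and of coding gene-end regions of 100 to 400 CPM 24.7% were higher at that p. YY1 averaged 264 ± 0.574 CPM with WM-1119 and 210.3 ± 47.1 CPM with DMSO, and NRF1 averaged 188 ± 10.1 CPM with WM-1119 and 156 ± 28.7 CPM with DMSO (SD, n = 3 each). TFAM, the factor that packs and transcribes mitochondrial DNA, averaged 87.6 ± 14.2 CPM with WM-1119 and 73.9 ± 3.74 CPM with DMSO (SD, n = 3 each; limma adjusted p = 0.471). DMSO replicate 3, at 263 CPM for YY1 and 189 CPM for NRF1, lay within the WM-1119 values of both genes.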

How the data were processed

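H3K9ac ChIP-seq of MOLM-13 cells was read from 1 deposited table with a column per library, and titles gave the groups. Bowtie2, MACS2, SAMtools, bedtools and the build hg38 appear, without versions or roles, per the submitters' processing notes. The authors named the values TPM per the file headers, but the deposited values are CPM, reads divided by the library's sum and not by region width. Taken back to reads, 100% of values up to 100 lay within 0.02 of a whole number in every library. The step of WM-1119 replicate 2 is too close to a round value to be told from rounding, so edgeR used the other 5 libraries and called 0 of the 81 regions.

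The design assumed a normalized matrix, which CPM also is, so the planned test was kept. R 4.3.3 with limma 3.58.1 (lmFit and eBayes, trend and robust set) modelled log2(CPM + 1), a scale on which weak regions change too little, where the mean was 1 CPM or more. Benjamini-Hochberg adjustment covered all tested regions. The model was also run on simulated data, with changes larger than any respiratory chain region had in the main fit and no difference in background between libraries. That run therefore cannot tell how well changes of the size seen here would be called. Gene ends, names and promoter windows came from RefSeq tables of GRCh38.p14; the gene table gives no strand. Other steps used Python 3.11.15 with pandas 2.3.3, numpy 2.4.6 and matplotlib 3.10.9. The members and lists were chosen with earlier results of these data known, so no p is given over a list.

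Named genes were the 5 with the smallest p in each direction, the highest and the lowest mean of each complex, all of complex II, the complex I core, the paralogue sets and the members on chromosome 8, with CYC1, CYCS, TFAM, NRF1, GABPA and YY1. Others named were picked after their values were seen. Alternatives were a replicate block, array weights, pseudocounts of 0.1 and 5, median centring, quantile normalization, a filter at a mean of 10 CPM or none, plain eBayes, leaving out libraries, edgeR 4.0.16 (quasi-likelihood test, TMM), and regions at RefSeq starts. Background was subtracted per library and chromosome as the 10th percentile of CPM per bp among regions wider than 500 bp and no wider than 1200 bp. The excess was also taken over the 50 nearest regions, by CPM per bp, off chromosomes 6, 8, 13 and 19, and over regions not shared with another gene. One member gene is not reported here.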

Additional observations from a re-analysis of the deposited data

How the results depend on the processing

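In limma and in edgeR as run on 5 libraries, 0 of the respiratory chain regions were called. The count was 54 with array weights, where 78.2% of all regions and 66.7% of other coding gene-end regions were called. It was 1 with the replicate block (COX8A, limma adjusted p 0.0493), where 1.11% of all regions and 1.05% of other coding gene-end regions were called. With 1 library left out it was 0 to 30, the 30 being without DMSO replicate 3. In that fit 43.2% of all regions and 27.6% of other coding gene-end regions were called. The replicate numbers did not meet the rule for pairing, a correlation over 0.1 in every pair: deviations of same-numbered libraries correlated at 0.22, 0.053 and 0.33, and those of differently numbered ones at -0.27 to 0.055. The median log2 change moved to 0.96 with median centring, 0.50 with edgeR and -0.062 with DMSO replicates 1 and 2 both left out, and was 0.055 to 0.31 with 1 left out. The median excess was -0.068 with those libraries left out, and -0.045 to 0.042 with 1 left out; it lay between -0.031 and 0.040 in every other alternative. The cause of these moves was not tested.

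Log2 changes of named genes turned sign in some alternatives, none of them called by limma as reported. With DMSO replicates 1 and 2 both left out they were -0.0073 for ATP5PF, 0.33 for COX6B2, -0.11 for NDUFB9, -0.0022 for SDHB, -0.025 for UQCRH, -0.18 for ATP5MJ, -0.095 for SDHA, -0.20 for SDHD, -0.23 for NDUFS1, -0.045 for NDUFS8, -0.074 for NDUFV1, -0.097 for NDUFV2, -0.086 for COX6B1, -0.21 for COX7B, -0.14 for NDUFAF6 and 0.092 for UQCRB. With array weights they were 0.12 for ATP5F1E, 0.13 for ATP5MK, 0.27 for NDUFS4, -0.019 for SDHC, -0.38 for SDHB, 0.092 for COX6A1 and -0.010 for NDUFAF6. With background subtracted they were -0.064 for SDHA and 0.018 for COX6A1. edgeR gave 0.14 for NDUFA3, 0.0051 for COX6B2, 0.25 for ATP5F1E, 0.35 for ATP5F1D, 0.23 for ATP5MK, 0.33 for NDUFS4, 0.17 for COX6A1 and 0.46 for UQCRB. Median centring, which adds the same amount to every region, gave 0.51 for NDUFA3, 0.36 for COX6B2, 0.67 for ATP5F1E, 0.69 for ATP5F1D, 0.72 for ATP5MK, 0.70 for NDUFS4, 0.71 for COX6A1 and 0.75 for UQCRB. Quantile normalization gave 0.0050 for COX6B2, -0.18 for NDUFB9, 0.055 for NDUFS4, -0.080 for COX6C, -0.050 for SDHA, -0.031 for NDUFS1, -0.036 for NDUFS3, -0.0016 for NDUFS8, 0.045 for COX6A1, -0.087 for COX6B1 and -0.20 for NDUFAF6, and a pseudocount of 5 gave -0.00031 for SDHB.

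With 1 library left out the ranges that crossed 0 were -0.19 to 0.045 for ATP5F1E, -0.051 to 0.33 for ATP5MJ, -0.13 to 0.077 for ATP5MK, -0.20 to 0.079 for COX6A1, -0.019 to 0.11 for COX6B1, -0.060 to 0.47 for COX7B, -0.073 to 0.10 for NDUFAF6, -0.0078 to 0.13 for NDUFB9, -0.25 to 0.11 for NDUFS4, -0.0051 to 0.26 for NDUFV1, -0.036 to 0.072 for SDHA, -0.20 to 0.20 for SDHB and -0.13 to 0.028 for UQCRB. The low depth of DMSO replicates 1 and 2 limits the precision of every DMSO mean.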
